A study of Mus musculus with 18 samples.

Results

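Osteoclasts are bone-resorbing cells of the myeloid lineage, and the genes described here are 10 that belong to their formation and work or to the RANK pathway that drives it. They were chosen by name and not by their values. They are Tnfsf11, Tnfrsf11b, Tnfrsf11a, Nfatc1, Dcstamp, Ocstamp, Atp6v0d2, Acp5, Ctsk and Calcr, 10 of 19946 genes that a probe set of the array names alone. Each of the 10 had 1 such probe set, and all 10 were tested. Male C57BL/6J mice of 6, 14 and 18 months, all on standard chow and with no treatment, gave the bone marrow adipocytes and the epididymal white adipocytes in which they were measured. GEO's labels call the second depot peripheral, and the paper calls it epididymal. The 6 groups had 3 arrays each, from 3 RNA preparations pooled from 6 to 10 animals a group, with both depots taken from the same mice. Marrow adipocytes were floated from flushed femurs and tibias after lysis of red cells, and epididymal ones were floated after collagenase digestion.

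Cells were collected by flotation and not sorted by surface markers, so the markers of adipocytes and of other cells were read beside the members. The paper reported that cells of both preparations stained for neutral lipid and perilipin. By PCR it also found adipocyte genes higher in the floated marrow cells than in marrow cells that did not float. A list of 9 adipocyte markers had an array mean of 6.36 to 7.13 in bone marrow and 11.96 to 12.43 in epididymal adipocytes, on the log2 scale of the deposited values. Each of these 9 markers was called lower in bone marrow. Plin1, the coat protein of lipid droplets, lay between 5.4 and 6.74 in bone marrow and between 12.18 and 12.70 in epididymal adipocytes. A list of 10 neutrophil markers averaged 11.67 to 12.33 in bone marrow. In epididymal arrays it averaged 5.26 to 9.01, with the highest value in 6-month replicate 1. The deposited values run up to 14.64, and array medians lie between 5.33 and 5.65. No background level or detection call was used here, so a level does not say whether a gene was expressed, and levels of different probe sets are not set against each other.

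RANKL, encoded by Tnfsf11, is made by osteoblast-lineage cells, marrow stromal cells and lymphocytes. It binds its receptor RANK, encoded by Tnfrsf11a, on myeloid precursors, and osteoprotegerin, encoded by Tnfrsf11b, is a soluble decoy that captures the ligand. RANK signals through TRAF6, NF-κB and AP-1 to NFATc1, the transcription factor that switches on the genes of fusion (Dcstamp, Ocstamp, Atp6v0d2), of resorption (Acp5, Ctsk) and of calcitonin sensing (Calcr). In bone marrow, adipocytes lie beside the precursors of osteoclasts. Acp5 and Ctsk are also known from macrophages and other cells of adipose tissue, so neither marks osteoclasts alone.

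The regulatory sequence of members can be read only in part. RefSeq windows of GRCm38.p6 were at hand for 5 of the 10 genes (8 start sites), and the 250 bases before each start were searched on both strands for 4 motifs. These were the NFAT core GGAAA, the AP-1 site TGANTCA, the E-box CACATG bound by MITF, and the ETS site GAGGAAG bound by PU.1. The windows of 3 genes are shown, each 5′ to 3′ on the gene's own strand and ending at the base before the start, with matches in capitals. Tnfsf11 is shown as the ligand (chr14:78308044-78308293, minus strand). Acp5 and Ctsk are shown because they are resorption genes that differed in opposite directions between ages in epididymal adipocytes. The Acp5 window precedes the innermost of 3 starts (chr9:22130599-22130848, minus strand), and the Ctsk window is at chr3:95498960-95499209 on the plus strand.
Tnfsf11: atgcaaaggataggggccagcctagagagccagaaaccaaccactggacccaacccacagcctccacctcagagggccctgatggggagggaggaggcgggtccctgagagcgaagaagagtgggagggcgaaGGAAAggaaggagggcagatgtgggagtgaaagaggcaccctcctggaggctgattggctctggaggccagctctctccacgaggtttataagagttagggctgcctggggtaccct
Acp5: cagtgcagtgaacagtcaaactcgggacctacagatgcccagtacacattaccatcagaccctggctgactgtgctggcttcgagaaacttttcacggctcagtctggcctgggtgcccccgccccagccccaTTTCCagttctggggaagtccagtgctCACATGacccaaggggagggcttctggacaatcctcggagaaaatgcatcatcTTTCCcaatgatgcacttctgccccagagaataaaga
Ctsk: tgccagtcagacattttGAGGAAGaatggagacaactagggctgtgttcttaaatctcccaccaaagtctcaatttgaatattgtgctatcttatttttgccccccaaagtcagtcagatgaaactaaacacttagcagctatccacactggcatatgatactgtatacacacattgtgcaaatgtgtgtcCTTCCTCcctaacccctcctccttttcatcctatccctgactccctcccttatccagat
The Tnfsf11 window holds 1 NFAT core. The Acp5 window holds 2 NFAT cores, both read on the other strand as TTTCC, and 1 E-box. The 2 matches in the Ctsk window are both ETS sites, 1 on each strand. Of the windows not shown, the other 2 of Acp5 hold 1 NFAT core each and no E-box, 1 of the 2 Calcr windows holds 1 NFAT core, and the other Calcr window and that of Tnfrsf11a hold none of the 4 motifs. The NFAT core occurs in 55.6% of 32851 promoter windows of the same length, the E-box in 12.3%, the ETS site in 10.6% and the AP-1 site in 6.75%. A match describes the letters only, and no binding was measured.

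**Figure D1:**
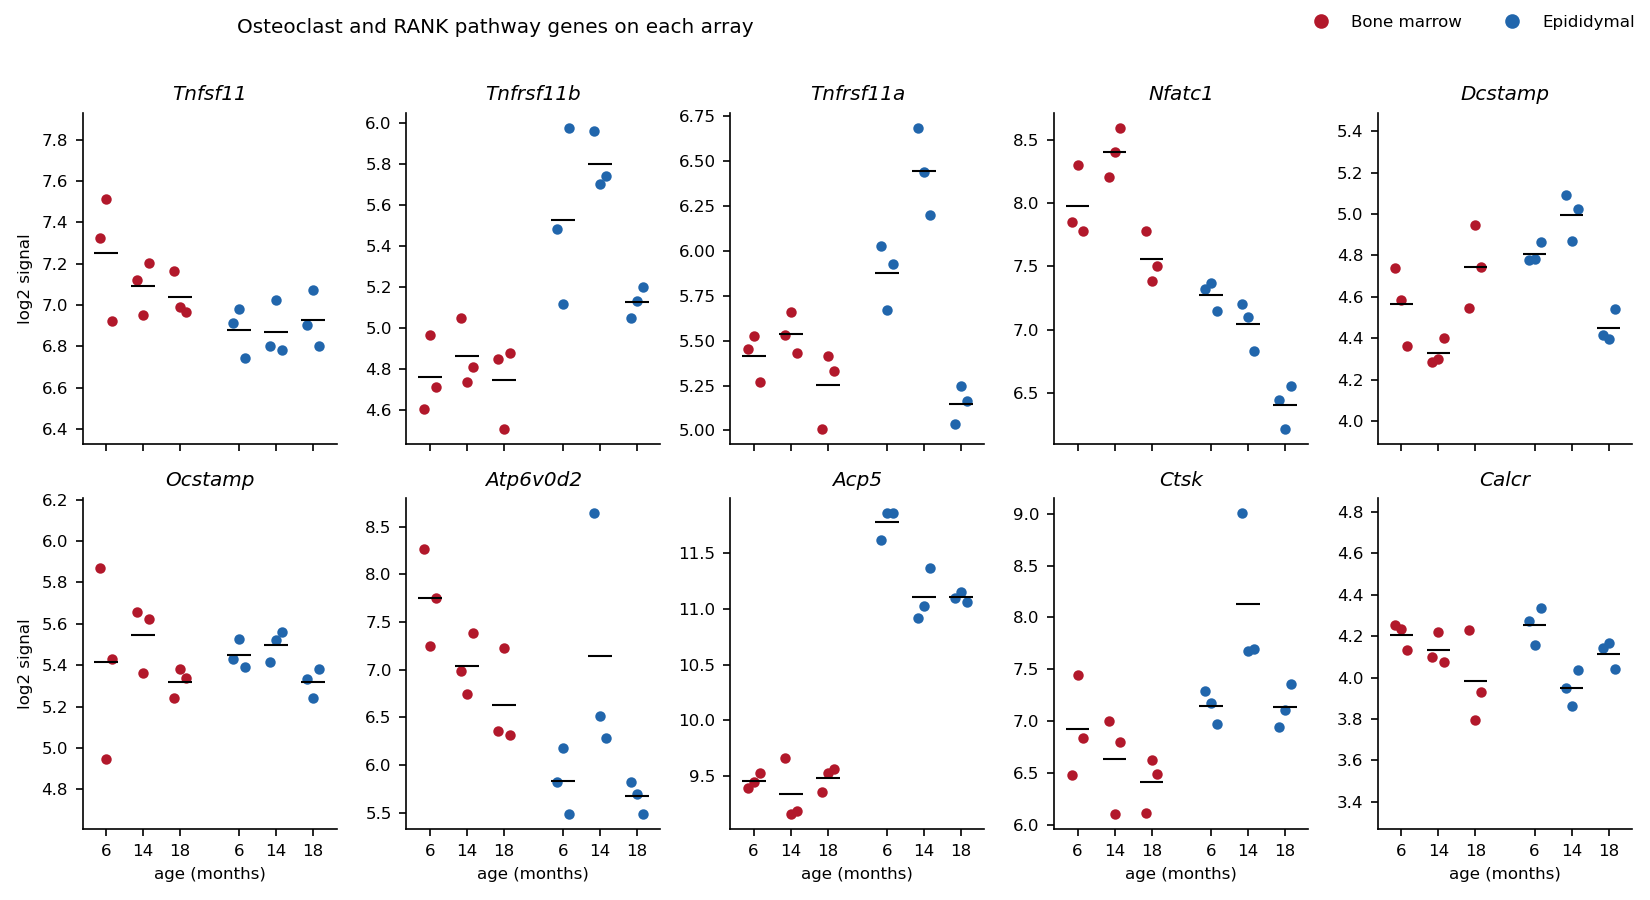
Deposited log2 signal (vertical axis, with its own range for each gene) of the 10 genes on each of 18 arrays, by age in months, with bone marrow adipocytes in red at the left and epididymal adipocytes in blue at the right of each panel. Points are arrays and lines are means of 3. The 9 bone marrow arrays lie below all epididymal arrays for Acp5 and Tnfrsf11b and above them for Nfatc1.

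Between the depots, pooled over the 3 ages, Acp5 was lower in bone marrow adipocytes and Nfatc1 was higher. These were the 2 of 10 members called, with a call needing a fold of 2 and an adjusted p under 0.05 (limma, with Benjamini-Hochberg adjustment over 23410 probe sets that name a gene). Of all tested probe sets 21.8% were called, so the members' count was near the background. Without the fold limit 8 members passed, against 58.1% of all probe sets. The median log2 difference of the members was -0.10, and that of all tested probe sets was -0.02. The 9 bone marrow arrays all lay below the 9 epididymal arrays for 2 members, Acp5 and Tnfrsf11b (15.3% of all probe sets), and all above them for 1, Nfatc1 (12.4% of all probe sets). Array means can stand for pools only, and in bulk RNA fewer cells of a type and less RNA per cell cannot be told apart.

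Tnfsf11, the ligand, differed little between depots and not detectably between ages. In bone marrow adipocytes it read 7.32, 7.51 and 6.92 at 6 months, 7.12, 6.95 and 7.20 at 14 months and 7.16, 6.99 and 6.96 at 18 months. In epididymal adipocytes it read 6.91, 6.98 and 6.74 at 6 months, 6.80, 7.03 and 6.78 at 14 months and 6.90, 7.07 and 6.80 at 18 months. The arrays of the depots overlapped, and the highest values were those of 2 bone marrow arrays at 6 months. Over the ages Tnfsf11 was higher in bone marrow by 0.24 on the log2 scale (SE 0.080, limma adjusted p = 0.016), under the fold of 2, but it was at -0.45 once all arrays were set equal on their ribosomal protein genes. That scaling takes a constant from each array, so it moved every probe set by -0.69 in this comparison. Relative to the shift Tnfsf11 is at 0.24 by construction, which is not a separate result. At single ages only the 6-month difference of 0.37 passed (adjusted p = 0.034). The largest age difference was -0.21 for 18 against 6 months in bone marrow, with a 95% interval of -0.50 to 0.080.

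Tnfrsf11b, the decoy receptor, was lower in bone marrow adipocytes. Its bone marrow values were 4.61, 4.97 and 4.72 at 6 months, 5.05, 4.74 and 4.81 at 14 months and 4.85, 4.51 and 4.88 at 18 months. Its epididymal values were 5.49, 5.12 and 5.98 at 6 months, 5.96, 5.70 and 5.74 at 14 months and 5.05, 5.13 and 5.20 at 18 months. The depots did not overlap, but the highest bone marrow array and the lowest epididymal array were almost equal (5.0489 and 5.0499). Over the ages the log2 difference was -0.69 (SE 0.0999, limma adjusted p = 5.0e-06), under the fold limit. All 9 bone marrow values of Tnfrsf11b lay below the lowest array median of 5.33, and whether its probe set was above background there is not known. Tnfrsf11b was at -0.76 at 6 months, -0.94 at 14 months and -0.38 at 18 months, and the last did not pass (adjusted p = 0.082).

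The ligand and its decoy can be read together on each array, since a shift common to an array cancels in their difference. The value itself joins different probe sets and has no meaning as a ratio of molecules, so only its change between arrays is given. Tnfsf11 minus Tnfrsf11b ranged from 2.07 to 2.71 in the 9 bone marrow arrays (median 2.32) and from 0.77 to 1.94 in the 9 epididymal arrays (median 1.43). The depots did not overlap, as was already so for Tnfrsf11b alone. The mean was 2.34 ± 0.22 in bone marrow and 1.41 ± 0.45 in epididymal adipocytes (SD over 9 arrays of 3 ages each). The first was higher by 0.93 on the log2 scale. Most of this came from the decoy, at -0.69 between depots, and the ligand was at 0.24. No fold is given, since the decoy's bone marrow values are not shown to be above background. At 6, 14 and 18 months the bone marrow mean was 2.49, 2.23 and 2.29, and the epididymal mean was 1.35, 1.07 and 1.80. No test was added for this difference, which was put together after the values of both genes were known.

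**Figure D2:**
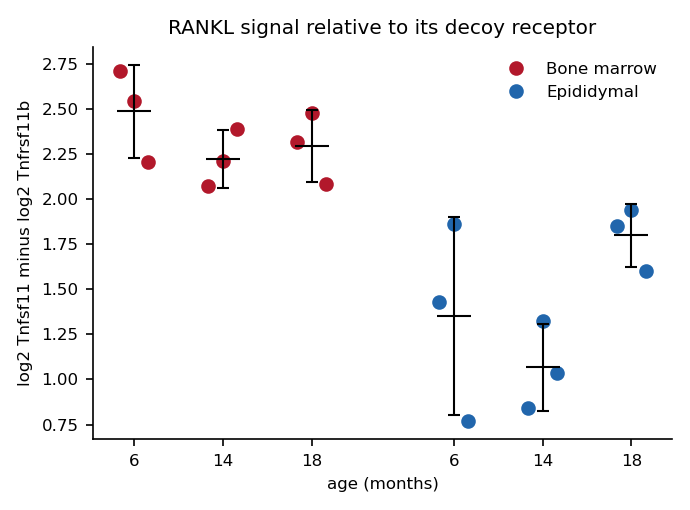
Log2 signal of Tnfsf11 minus that of Tnfrsf11b (vertical axis) by age in months, for bone marrow adipocytes in red at the left and epididymal adipocytes in blue at the right. Points are arrays, and lines with bars are means ± SD of 3. The bone marrow arrays lie at 2.07 and above, and the epididymal arrays at 1.94 and below.

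Tnfrsf11a, the receptor RANK, followed age in epididymal adipocytes. Bone marrow arrays gave 5.46, 5.53 and 5.27 at 6 months, 5.53, 5.66 and 5.43 at 14 months and 5.01, 5.41 and 5.33 at 18 months. Epididymal arrays gave 6.03, 5.67 and 5.93 at 6 months, 6.68, 6.44 and 6.20 at 14 months and 5.04, 5.25 and 5.16 at 18 months. The 3 epididymal age groups did not overlap, with 14 months highest and 18 months lowest, whereas the bone marrow ages overlapped. All 3 epididymal values at 18 months lay below the lowest array median of 5.33, and bone marrow values lay from 5.01 to 5.66. Whether the probe set was above background there is not known, so a lower level in bone marrow might not be seen. From high to low, the 6 groups ran epididymal 14 and 6 months, bone marrow 14, 6 and 18 months, and epididymal 18 months. The neighbors bone marrow 14 and 6 months did not pass (limma adjusted p = 0.70), nor did bone marrow 6 and 18 months (adjusted p = 0.55). Bone marrow and epididymal 18 months did not pass either (adjusted p = 0.64). Epididymal 6 and bone marrow 14 months were not compared.

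In epididymal adipocytes Tnfrsf11a was lower at 18 than at 14 months (log2 fold change -1.29, SE 0.14, limma adjusted p = 1.5e-06). It was also lower at 18 than at 6 months (-0.72, adjusted p = 0.0017). The difference of 0.57 for 14 against 6 months also passed (adjusted p = 0.0079), but it was 0.34 under the ribosomal scaling (adjusted p = 0.091), 0.45 without epididymal 14-month replicate 1 (adjusted p = 0.060) and 0.47 without 6-month replicate 2 (adjusted p = 0.055). Between depots Tnfrsf11a was lower in bone marrow by a log2 difference of -0.46 at 6 months and -0.90 at 14 months, and the difference at 18 months was 0.10, turning to -0.55 under the ribosomal scaling and to -0.081 with quantile normalization repeated.

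Nfatc1, the transcription factor at the end of the RANK signal, was higher in bone marrow adipocytes, and in both depots lower at 18 than at 14 months. It read 7.85, 8.30 and 7.78 in bone marrow at 6 months, 8.21, 8.40 and 8.59 at 14 months and 7.78, 7.38 and 7.50 at 18 months. It read 7.32, 7.37 and 7.15 in epididymal adipocytes at 6 months, 7.20, 7.10 and 6.83 at 14 months and 6.45, 6.22 and 6.55 at 18 months. Every bone marrow array exceeded every epididymal array, by little between bone marrow at 18 months and epididymal adipocytes at 6 months. Over the ages Nfatc1 was 2.10-fold higher in bone marrow (log2 1.07, SE 0.090, limma adjusted p = 2.9e-09). By age the log2 difference was 0.70 at 6 months, 1.36 at 14 months and 1.15 at 18 months. Under the ribosomal scaling Nfatc1 fell under the fold limit, at 0.38 over the ages, 0.80 at 14 months and 0.50 at 18 months, and at 6 months its direction turned, to -0.16.

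Age differences of Nfatc1 were called in both depots for 18 against 14 months, at a log2 fold change of -0.85 in bone marrow (adjusted p = 0.0013) and -0.64 in epididymal adipocytes (adjusted p = 0.0051). For 18 against 6 months Nfatc1 was at -0.42 in bone marrow (adjusted p = 0.11) and at -0.87 in epididymal adipocytes (adjusted p = 8.3e-04). The difference between these depot changes had an interval of -0.011 to 0.92. Without bone marrow 6-month replicate 3, the bone marrow value also passed, at -0.52. The bone marrow value of 0.43 for 14 against 6 months passed only without 6-month replicate 2, at 0.59.

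Among the genes of cell fusion, Dcstamp, a membrane protein that precursors need in order to fuse, moved in opposite directions in the depots at 18 against 14 months. Bone marrow Dcstamp values were 4.74, 4.59 and 4.36 at 6 months, 4.29, 4.30 and 4.40 at 14 months and 4.55, 4.95 and 4.75 at 18 months. Epididymal Dcstamp values were 4.78, 4.78 and 4.87 at 6 months, 5.09, 4.87 and 5.02 at 14 months and 4.41, 4.40 and 4.54 at 18 months. All 3 bone marrow arrays at 18 months exceeded those at 14 months, and all 3 epididymal arrays at 18 months lay under those at 14 and 6 months. All Dcstamp values, from 4.29 to 5.09, lay below the lowest array median. For 18 against 14 months the log2 fold change of Dcstamp was 0.42 in bone marrow (adjusted p = 0.026) and -0.55 in epididymal adipocytes (adjusted p = 0.0022). The epididymal value was -0.34 with quantile normalization repeated (adjusted p = 0.047) and -0.38 under the ribosomal scaling, where it did not pass (adjusted p = 0.078). The bone marrow call was lost without bone marrow 14-month replicate 1 or 2, or 18-month replicate 2 or 3, with values of 0.32 to 0.42 (largest adjusted p 0.15, without 18-month replicate 2). Between depots Dcstamp differed by -0.21 over the ages (adjusted p = 0.016), by -0.67 at 14 months (adjusted p = 1.1e-04) and by 0.30 at 18 months (adjusted p = 0.051), the last turning to -0.35 under the ribosomal scaling.

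Ocstamp, the second fusion protein, showed no difference between depots or ages that passed. Bone marrow arrays ranged from 4.95 to 5.87 (median 5.38) and epididymal arrays from 5.24 to 5.56 (median 5.41), and both extremes were 6-month bone marrow arrays. The difference of Ocstamp between depots over the ages was 0.0050, with a 95% interval of -0.19 to 0.20. Under the ribosomal scaling it was -0.68, about as far as all probe sets moved.

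Atp6v0d2, the d2 subunit of the proton pump, which takes part in fusion and acid secretion, was the member that varied most between arrays of a group. In bone marrow it gave 8.26, 7.25 and 7.75 at 6 months, 6.98, 6.74 and 7.38 at 14 months and 6.35, 7.23 and 6.32 at 18 months. In epididymal adipocytes it gave 5.82, 6.18 and 5.49 at 6 months, 8.64, 6.51 and 6.28 at 14 months and 5.83, 5.70 and 5.49 at 18 months. At 6 and 18 months every bone marrow array lay above every epididymal array. At 14 months epididymal replicate 1 lay above all bone marrow arrays of that age, and the other 2 below them.

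At 6 months Atp6v0d2 was 3.79-fold higher in bone marrow (log2 1.92, SE 0.43, limma adjusted p = 0.0010). Under the ribosomal scaling this was 1.07. The log2 difference was -0.11 at 14 months (adjusted p = 0.87), but it was 0.64 without epididymal 14-month replicate 1, 0.038 without bone marrow 14-month replicate 2, 0.17 with array weights and 0.059 with arrays centred on the median, so the 14-month direction is not settled. At 18 months it was 0.96 (adjusted p = 0.080), and 0.31 under the ribosomal scaling. Over the ages Atp6v0d2 differed by 0.93 (adjusted p = 0.0034), and by 1.17 without epididymal 14-month replicate 1 and 1.01 without bone marrow 6-month replicate 2, both past the fold limit, but by 0.24 under the ribosomal scaling (adjusted p = 0.32). Its epididymal difference for 14 against 6 months was 1.32 (adjusted p = 0.043), and 0.57 without the same 14-month array (adjusted p = 0.26). A total of 17 of 29 alternatives lost that call, among them those without any 1 array of epididymal 6 or 18 months, bone marrow 14-month replicate 1 or 2 or bone marrow 18-month replicate 1, with values of 1.15 to 1.49, and with ordinary tests, array weights or arrays centred on the median. For 18 against 14 months it was -1.47 (adjusted p = 0.017), and -0.73 without that array (adjusted p = 0.098) or -1.38 without epididymal 18-month replicate 3 (adjusted p = 0.060). In all, the call for 18 against 14 months was lost in 3 of 29 alternatives. In bone marrow, Atp6v0d2 at 18 against 6 months was at -1.12 (adjusted p = 0.12), which passed without epididymal 14-month replicate 1 (adjusted p = 0.016).

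Acp5, the tartrate-resistant acid phosphatase used to stain osteoclasts, had the largest depot difference of the 10 over the ages and was lower in bone marrow. Its bone marrow values were 9.39, 9.44 and 9.53 at 6 months, 9.66, 9.16 and 9.19 at 14 months and 9.36, 9.53 and 9.57 at 18 months. Its epididymal values were 11.61, 11.86 and 11.86 at 6 months, 10.92, 11.03 and 11.36 at 14 months and 11.10, 11.15 and 11.06 at 18 months. The lowest epididymal array was more than 1 log2 unit above the highest bone marrow array. Over the ages Acp5 was 3.74-fold lower in bone marrow (log2 -1.90, SE 0.081, limma adjusted p = 7.6e-14), and by age the log2 difference was -2.32, -1.76 and -1.62 at 6, 14 and 18 months. Epididymal Acp5 was lower at both older ages, by a log2 fold change of -0.67 at 14 against 6 months (adjusted p = 0.0019) and -0.67 at 18 against 6 months (adjusted p = 0.0029). In bone marrow the same differences of Acp5 were -0.11 and 0.031, and neither passed.

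Ctsk, the collagen-degrading protease cathepsin K, was lower in bone marrow at 14 months. Bone marrow arrays read 6.49, 7.45 and 6.84 at 6 months, 7.0045, 6.11 and 6.80 at 14 months and 6.12, 6.63 and 6.50 at 18 months. Epididymal arrays read 7.29, 7.17 and 6.98 at 6 months, 9.004, 7.68 and 7.70 at 14 months and 6.95, 7.11 and 7.36 at 18 months. Epididymal 14-month arrays lay above all other arrays, and replicate 1 was the highest of them. At 14 months Ctsk was 2.81-fold lower in bone marrow (log2 -1.49, SE 0.31, limma adjusted p = 4.3e-04). At 6 and 18 months the log2 difference was -0.22 and -0.73, and neither passed. Over the ages Ctsk was at -0.81 (adjusted p = 5.0e-04), under the fold limit. Epididymal Ctsk was at 0.98 for 14 against 6 months (adjusted p = 0.032) and at -0.99 for 18 against 14 months (adjusted p = 0.024). Without epididymal 14-month replicate 1 these were 0.54 (adjusted p = 0.22) and -0.55 (adjusted p = 0.17). The first was also lost without epididymal 6-month replicate 2 or 3 (0.99 and 0.89), and the second without 18-month replicate 1 or 2 (-0.89 and -0.97). In all, each of these calls was lost in 5 of 29 alternatives.

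Calcr, the calcitonin receptor through which the hormone restrains resorption, lay low on every array, from 3.797 to 4.26 in bone marrow (median 4.13) and from 3.86 to 4.34 in epididymal adipocytes (median 4.14). The depots overlapped and no comparison passed. Its depot difference over the ages had a 95% interval of -0.14 to 0.14, and under the ribosomal scaling Calcr was at -0.69, as far as all probe sets moved.

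**Figure D3:**
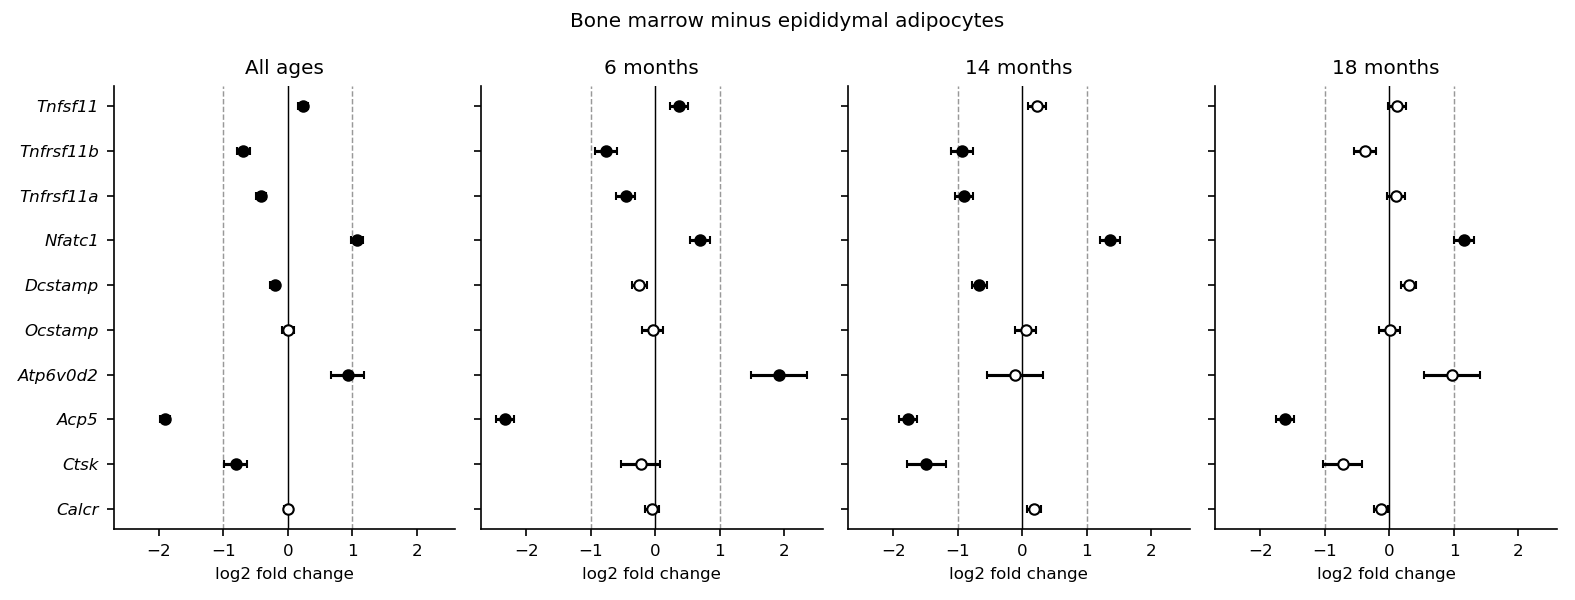
Log2 fold change of bone marrow over epididymal adipocytes (horizontal axis) for the 10 genes over all ages and at each age, with bars of 1 SE from limma. Filled points have an adjusted p under 0.05, and dashed lines mark a fold of 2. Acp5 lies beyond the fold of 2 in every panel and Nfatc1 in all but 6 months, while Tnfsf11 lies near 0 and, with ribosomal protein genes set equal, on the other side of it, as does Nfatc1 at 6 months.

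By age of the mice, 2 members were called between depots at 6 months, Atp6v0d2 higher and Acp5 lower in bone marrow (23.1% of all probe sets). At 14 months 3 were called, with Nfatc1 higher and Acp5 and Ctsk lower (21.4%). At 18 months Nfatc1 was higher and Acp5 lower, which makes 2 (23.8%). The calls of Nfatc1 at 14 and 18 months were lost under the ribosomal scaling. Without the fold limit 6 members passed at 6 months (46.3% of all), 6 at 14 months (45.8%) and 2 at 18 months (47.1%). Acp5 was called at all 3 ages. The counts with the fold limit lay close to the background at each age, and the 18-month count without it lay below.

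Age differences were called for few members in bone marrow adipocytes and for most in epididymal adipocytes. Over both older ages together, limma's F test called 1 member in bone marrow, Nfatc1 (adjusted p = 0.0031), against 18.5% of all probe sets. In epididymal adipocytes it called 7 of 10 (31% of all), all but Tnfsf11, Ocstamp and Calcr, with Tnfrsf11a first (adjusted p = 5.0e-06). Without epididymal 14-month replicate 1 that count was 4. The share of all probe sets without that array is not given. With all arrays, the epididymal share lay above its background, and the bone marrow count was near its own. No test is attached to this description. The comparisons within a depot share arrays, and their counts are not independent.

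In bone marrow no member was called at 14 against 6 months (8.66% of all probe sets) or at 18 against 6 months (8.5%) by limma. At an unadjusted p under 0.05 there were 1 and 2 members, and ordinary tests without variance moderation called 0 in both. At 18 against 14 months 2 were called, Dcstamp higher and Nfatc1 lower (13%). In epididymal adipocytes 4 were called at 14 against 6 months (17.7%), of which Atp6v0d2, Ctsk and Tnfrsf11a were higher (10.2% of all were higher) and Acp5 lower. At 18 against 6 months Acp5, Dcstamp, Nfatc1 and Tnfrsf11a were called, all lower (4 of 10, against 16.2% in either direction and 8.01% lower). Dcstamp was there at -0.36 with an adjusted p of 0.049, and 20 of 28 alternatives lost this call. At 18 against 14 months 6 of 10 were called and all were lower, namely Atp6v0d2, Ctsk, Dcstamp, Nfatc1, Tnfrsf11a and Tnfrsf11b (24.1% in either direction and 12.5% lower). Tnfrsf11b was at -0.68 (adjusted p = 0.0070), and at -0.41 with quantile normalization repeated and -0.51 under the ribosomal scaling, neither of which passed. The median log2 fold change of the 10 members was -0.59 for 18 against 14 months in epididymal adipocytes, and -0.01 over all tested probe sets. Age and the handling of an age group cannot be told apart.

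**Figure D4:**
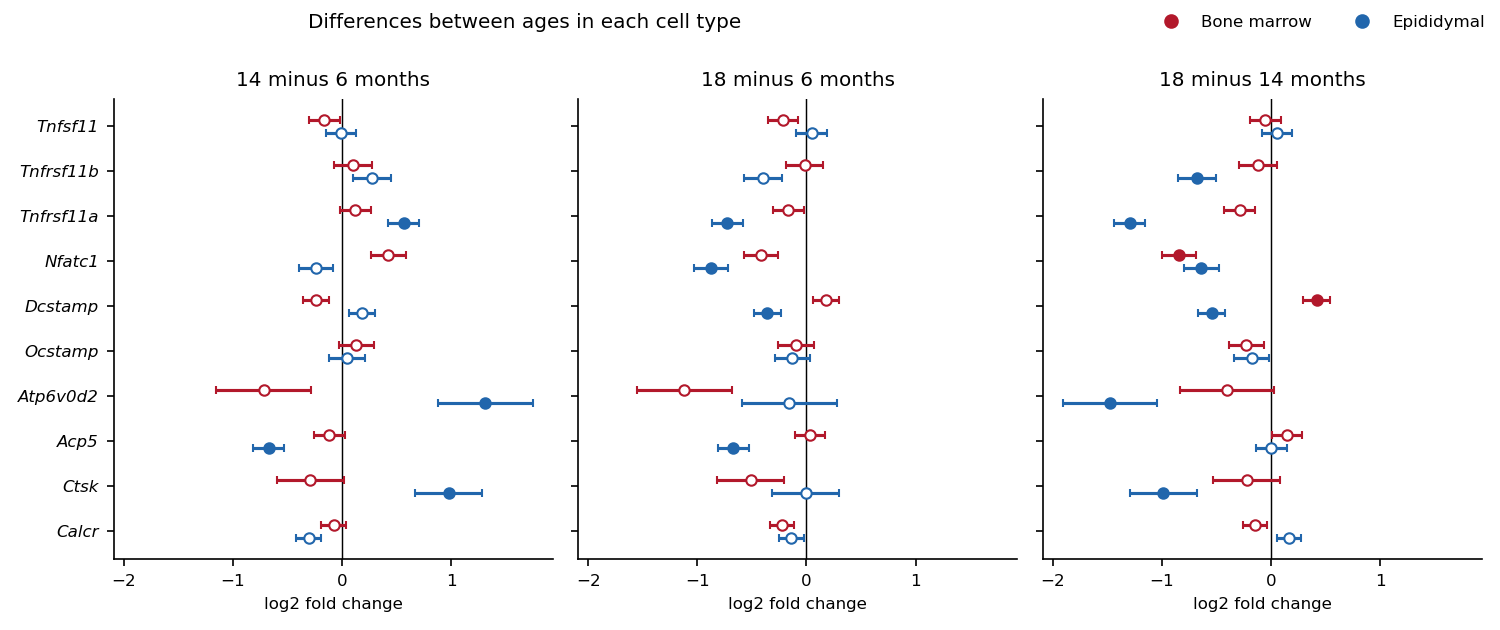
Log2 fold change between ages (horizontal axis; older minus younger) for the 10 genes in bone marrow adipocytes (red) and epididymal adipocytes (blue), with bars of 1 SE from limma and filled points for an adjusted p under 0.05. In the 18 minus 14 months panel 6 epididymal points are filled at the left of 0, while bone marrow has Nfatc1 filled at the left and Dcstamp at the right.

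The difference of an age change between the depots was tested directly, as the bone marrow change minus the epididymal change. It was called for 1 member at 14 against 6 months, Atp6v0d2 (11.6% of all probe sets), and for 1 at 18 against 6 months, Acp5 (8.51%). At 18 against 14 months it was called for 2, Tnfrsf11a and Dcstamp (15.8%). Tnfrsf11a changed by -0.29 in bone marrow and -1.29 in epididymal adipocytes, a difference of 1.00 (SE 0.20, limma adjusted p = 0.0018). Dcstamp had a difference of 0.96 (SE 0.17, adjusted p = 5.9e-04). Both passed in every alternative that kept the gene, save that Dcstamp lay under a fold of 2. A filter on low values dropped Dcstamp. All Dcstamp values, and the epididymal 18-month values of Tnfrsf11a, lay below the lowest array median of 5.33. Acp5 at 18 against 6 months changed by 0.031 in bone marrow and -0.67 in epididymal adipocytes, a difference of 0.70 (adjusted p = 0.034). For Ctsk at 14 against 6 months the difference was -1.27 and did not pass (adjusted p = 0.067).

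Markers of macrophages and monocytes, the lineage that also gives osteoclasts, moved with several of these epididymal differences. Of 14 such markers, 12 were called higher and 1 lower at 14 against 6 months in epididymal adipocytes, and 13 were called lower at 18 against 14 months. Their mean on each epididymal array was 7.25 to 7.56 at 6 months, 8.96 to 9.51 at 14 months and 6.07 to 6.22 at 18 months, highest in 14-month replicate 1, the array that also stood highest for Atp6v0d2, Ctsk and Tnfrsf11a. In bone marrow the mean was 9.05 to 9.93 over all arrays, and 4 of the 14 were called higher at 14 against 6 months. Fibroblast and mesothelial markers followed the same epididymal order, with 9 of 9 higher at 14 against 6 months and 8 of 9 lower at 18 against 14 months. Acp5 was lower at 14 than at 6 months in epididymal adipocytes, where 12 of the 14 macrophage and monocyte markers were higher. At 14 months Tnfrsf11a was higher in epididymal adipocytes than in bone marrow. The macrophage and monocyte marker mean at that age was 8.96 to 9.51 in epididymal adipocytes and 9.57 to 9.93 in bone marrow. The part of macrophages, monocytes, fibroblasts and mesothelial cells in these differences was not tested.

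**Figure D5:**
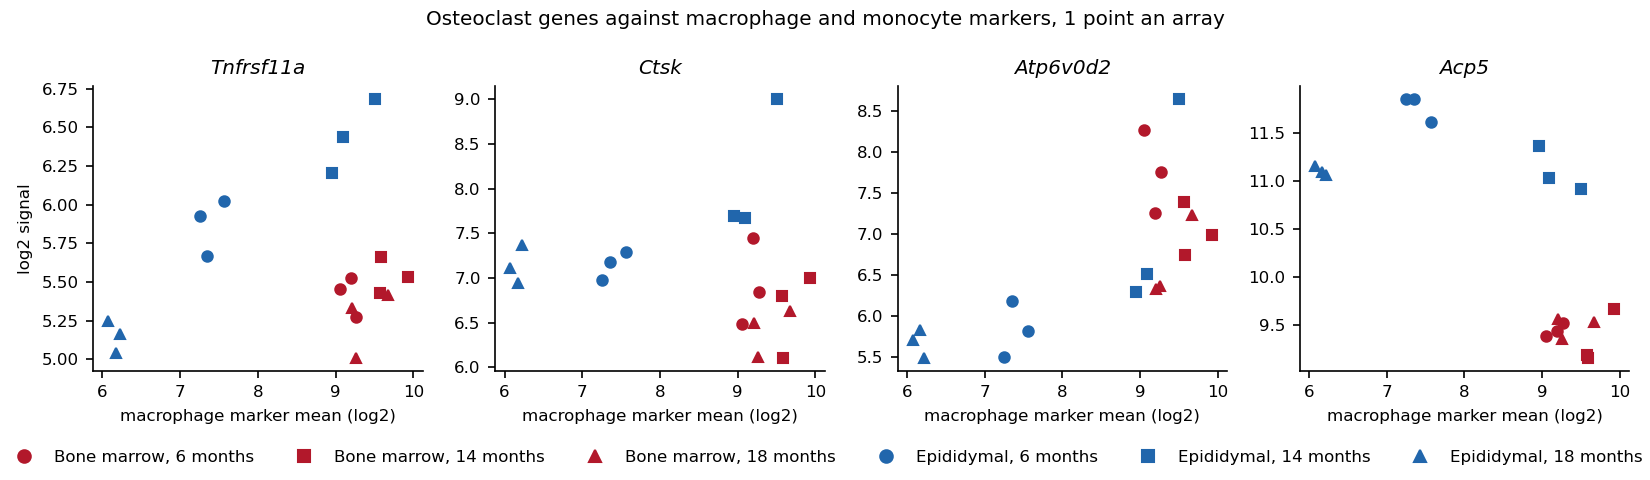
Log2 signal of Tnfrsf11a, Ctsk, Atp6v0d2 and Acp5 (vertical axes, each with its own range) against the mean log2 signal of 14 macrophage and monocyte markers (horizontal axes), 1 point an array, with color for the depot and shape for the age. Epididymal marker means fall into 3 separate age groups, at 6.07 to 6.22 for 18 months, 7.25 to 7.56 for 6 months and 8.96 to 9.51 for 14 months, and bone marrow arrays lie at 9.05 to 9.93.

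Between depots, 11 of the 14 macrophage and monocyte markers and all 10 neutrophil markers were called higher in bone marrow adipocytes over the ages. The paper counted cells stained for CD11b and reported a similar degree of monocyte and macrophage contamination in both preparations. That was a count of cells, whereas the markers here are RNA levels. Adgre1, which encodes a surface receptor of macrophages, ranged from 8.81 to 10.03 in bone marrow (median 9.02) and from 5.64 to 9.76 in epididymal adipocytes (median 7.05). Of 7 measured osteoblast and osteocyte markers (10 listed), 2 were called higher in bone marrow. These were Ibsp, which encodes bone sialoprotein, at 4.02 and Phex at 1.45. The other 5 were not called, and the list median was 0.073, against -0.02 over all tested probe sets. The list mean on each array was 5.28 to 5.88 in bone marrow and 4.53 to 4.85 in epididymal adipocytes. Acp5 and Ctsk lay in the opposite direction from the macrophage markers. Whether the cell types behind these markers took part in the depot differences of the members was not tested.

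Wider lists of the pathway were read in the same fit. Of 17 genes of resorption and acid secretion, 4 were higher and 3 lower in bone marrow over the ages (10.2% of all probe sets were higher and 11.6% lower), and the list's median was -0.30 against -0.02 over all tested probe sets. Car2, the carbonic anhydrase that supplies protons, was at 11.49 to 12.65 in bone marrow (median 12.12) and 5.07 to 8.17 in epididymal adipocytes (median 6.57), a log2 difference of 5.76 (SE 0.16, adjusted p = 2.0e-16). Mmp9, a gelatinase that neutrophils also store, differed by 4.63, and Itgb3, the β3 integrin of osteoclasts and platelets, by 3.64. Tcirg1, the pump subunit of the ruffled border, was the fourth, at 1.73, and was named after its value was seen. Sh3pxd2a, a podosome scaffold, was at 4.43 to 5.90 in bone marrow and 9.22 to 10.70 in epididymal adipocytes (log2 -4.50). Slc9b2, a sodium-proton exchanger, was at -1.43 and Ckb, a creatine kinase, at -1.13. Under the ribosomal scaling 4 of the 17 were higher and 8 lower, while the median of all tested probe sets moved by -0.69.

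Of 18 measured genes of RANK signaling and osteoclast transcription (20 listed), 4 were higher in bone marrow and 1 lower. Of all probe sets, 10.2% were higher and 11.6% lower. Spi1, which encodes the myeloid factor PU.1, was at 8.86 to 11.27 in bone marrow (median 9.85) and 4.99 to 7.60 in epididymal adipocytes (median 6.07), a log2 difference of 3.63 (SE 0.18, adjusted p = 9.0e-13). Prdm1, a repressor of inhibitors of osteoclast formation, Fos, a subunit of AP-1, and Map3k14, the NF-κB-inducing kinase, were at 1.47, 1.08 and 1.04 with overlapping arrays. These names were chosen after their values were seen. Lgr4, a second receptor for RANKL that restrains RANK signals, was at 5.14 to 5.90 in bone marrow (median 5.46) and 8.89 to 10.44 in epididymal adipocytes (median 10.15), a log2 difference of -4.44 (SE 0.11, adjusted p = 3.8e-17). The median of the list was 0.44, but under the ribosomal scaling it was -0.25, with 1 higher and 4 lower and a median of -0.71 over all tested probe sets.

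Of 11 measured costimulatory and M-CSF axis genes (13 listed), 7 were higher in bone marrow, against 10.2% of all probe sets. The list median was 1.48, against -0.02 over all tested probe sets (5 higher and 1 lower under the ribosomal scaling). Tyrobp, the adaptor DAP12, differed by 3.79, Plcg2, a phospholipase that raises calcium, by 3.53 and Fcer1g, the Fc receptor gamma chain, by 3.43. Of 7 measured inhibitors of osteoclast formation (8 listed), 4 were higher (2 under the ribosomal scaling), against the same 10.2% of all probe sets. Among them were Id2, an inhibitor of differentiation (2.60), and Irf8, a factor that holds Nfatc1 down (1.26). Tnfaip3 (2.13) and Nfkbia (1.33), both NF-κB inhibitors, overlapped between depots and were named after their values were seen. Tyrobp, Fcer1g, Plcg2 and Spi1 are also genes of macrophages and other myeloid cells, whose markers moved in the same direction.

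With age, most costimulatory genes moved in epididymal adipocytes as the macrophage markers did. Of the 11, 8 were higher at 14 against 6 months (10.2% of all probe sets), led by Fcer1g (2.30) and Csf1r, the M-CSF receptor (2.20), and 7 were lower at 18 against 14 months (12.5% of all), led by Csf1r (-3.98) and Fcer1g (-3.10). RANK signaling genes split, with 2 higher and 5 lower at 14 against 6 months (7.51% of all were lower; Fos at -3.54 and Jun at -2.84) and 4 higher and 5 lower at 18 against 14 months (11.7% of all were higher; Fos at 2.82 and Spi1 at -1.93). Resorption genes split as well, with 3 higher and 3 lower at 14 against 6 months, Mmp14 at 2.29 and Car2 at -1.96. Of the 7 inhibitors 4 were lower at 14 against 6 months, led by Socs3 (-3.14) and Tnfaip3 (-3.04), and at 18 against 14 months 4 were higher and 1 lower, with a list median of 0.78.

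In bone marrow adipocytes at 14 against 6 months, 5 of 18 RANK signaling genes were higher and 1 lower, and 4 of 7 inhibitors, 3 of 17 resorption genes and 1 of 11 costimulatory genes were higher (5.08% of all probe sets). At 18 against 14 months 9 of 18 RANK signaling genes were lower (8.23% of all), led by Prdm1 (-1.51) and Jun (-1.15), and so were 6 of 17 resorption genes, 5 of 11 costimulatory genes, led by Csf1 (-2.00), and 3 of 7 inhibitors, led by Tnfaip3 (-1.63). Under the ribosomal scaling the resorption count was 1. Markers of B-lineage cells, lymphocytes that marrow makes, followed the same order of ages. Of 8 measured B-lineage markers 6 were higher at 14 against 6 months and 8 lower at 18 against 14 months, and their mean on each array was 7.84 to 8.19 at 6 months, 8.88 to 9.24 at 14 months and 7.72 to 8.12 at 18 months. Nfatc1, which lymphocytes also express, was highest at 14 months in bone marrow as well. Of 7 measured T-cell markers 3 were higher at 14 against 6 months and 1 lower at 18 against 14 months, with array means of 6.09 to 6.14, 6.85 to 6.91 and 6.37 to 6.66 at 6, 14 and 18 months. In epididymal adipocytes 5 B-lineage and 3 T-cell markers were higher at 14 against 6 months, and 4 of each were lower at 18 against 14 months. The part of lymphocytes in the differences of Nfatc1 and of these lists was not tested.

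The genes whose pattern over the 18 arrays was most like that of a member, once the mean of each depot was taken out, were named by Pearson's r as a description, without a test. For Tnfrsf11a they were Cd74 (r = 0.946), the invariant chain of antigen presentation, and C3ar1 (0.943), a complement receptor of myeloid cells. For Ctsk they were Rnf128 (0.893) and Cxcl12 (0.858), and for Atp6v0d2 Tslp (0.888) and Sned1 (0.874). Nfatc1 was nearest to Wbp1l (0.942) and Dennd3 (0.911), and Acp5 to Ppp1r15b (0.927) and Aox1 (0.901). The highest r for each of Tnfsf11, Tnfrsf11b, Dcstamp, Ocstamp and Calcr was between 0.842 and 0.879. The arrays share depots, ages and pools, so these values do not stand for 18 independent samples.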

How the data were processed

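Bone marrow and epididymal adipocytes were measured on 18 Affymetrix Mouse Gene 1.0 ST arrays. The authors corrected the scans by gcRMA in Partek, applied quantile normalization and deposited values on the log2 scale. These were not changed, although at equal rank arrays differ by up to 0.58. The precision is limited by 3 pools a group, whose spread may be in part technical.

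Of 35556 probe sets, 23410 name a gene in the array's annotation and were tested, and 1613 of these name several genes. A linear model of limma 3.58.1 in R 4.3.3 fitted the 6 group means to the 18 arrays, with contrasts between depots, between ages, and of the age changes between depots. The Benjamini-Hochberg adjustment was made per contrast. A call needed an adjusted p under 0.05, and between depots also a fold of 2. The methods of the study fitted depot, age and their interaction. The fit was tested on simulated data with known changes.

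The members were chosen by name, but earlier results of these data were known when they and the lists were chosen. All members were named. The rule for each wider list was up to 3 called rises and 3 called falls between depots without overlap of arrays, up to 2 called genes per age comparison, and for likeness the 2 nearest genes. Genes outside it that complete a small count (Tcirg1, Prdm1, Fos, Map3k14, Tnfaip3, Nfkbia) were named after their values were seen. Alternatives changed the probe sets, variance estimate, array weights, scaling, samples in the fit, fold limits, replicate block and arrays left out. Promoter windows came from RefSeq (GRCm38.p6). Raw scans and serum measurements were not used here. Figures were drawn in Python 3.11.15.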

Additional observations from a re-analysis of the deposited data

Results flagged for a closer look

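For 4 results, the age change of a member differed between the depots by a test of the difference itself (bone marrow change minus epididymal change, limma, Benjamini-Hochberg adjustment over all tested probe sets).

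Atp6v0d2 had a difference of -2.03 on the log2 scale for 14 against 6 months (adjusted p = 0.038), with changes of -0.72 in bone marrow and 1.32 in epididymal adipocytes. It did not pass in 10 of 29 alternatives (adjusted p 0.061 to 0.14), among them without bone marrow 6-month replicate 1, epididymal 6-month replicate 1 or 3, or bone marrow 14-month replicate 1 or 2. Acp5 had a difference of 0.70 for 18 against 6 months (adjusted p = 0.034), with changes of 0.031 in bone marrow and -0.67 in epididymal adipocytes. It did not pass in 10 of 29 alternatives (adjusted p 0.050 to 0.086), among them without bone marrow 6-month replicate 1, epididymal 6-month replicate 2 or 3, bone marrow 18-month replicate 2 or 3, or any of the epididymal 18-month arrays. For 18 against 14 months Tnfrsf11a had a difference of 1.00 (adjusted p = 0.0018) and Dcstamp one of 0.96 (adjusted p = 5.9e-04). Dcstamp changed by 0.42 in bone marrow and -0.55 in epididymal adipocytes. These 2 passed in all alternatives that kept the gene, save that Dcstamp lay under a fold of 2. The filter on low values dropped Dcstamp. All values of Dcstamp, and those of Tnfrsf11a in epididymal adipocytes at 18 months, lay below the lowest array median of 5.33. Whether these were above background is not known.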

How the results depend on the processing

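Each result for a single member was set against each alternative that applied to it, and the counts here are of such pairs. In 3517 pairs the direction and side of the threshold were kept, which includes results called in neither. In 83 pairs a call was lost, in 50 one was gained and in 98 the direction turned. In 12 of the 98 turns the reported or the alternative value had an adjusted p under 0.05, and these 12 came from setting the arrays equal on 57 ribosomal protein genes, which moved the median of all tested probe sets by -0.69 between depots over the ages. Then Tnfsf11 was at -0.45 over the ages and at -0.48, -0.34 and -0.53 at 6, 14 and 18 months, Tnfrsf11a at -0.55 at 18 months, Nfatc1 at -0.16 at 6 months and Dcstamp at -0.35 at 18 months. Ocstamp was at -0.68 over the ages, -0.51 at 14 months and -0.65 at 18 months, and Calcr at -0.69 over the ages and -0.38 at 14 months. For 18 against 14 months in epididymal adipocytes, centring on the median moved all probe sets by 0.19, repeated quantile normalization by 0.13 and the ribosomal scaling by 0.16. The ribosomal scaling takes a constant from each array, so every probe set moved by the same amount in a comparison. The 57 genes thus averaged 0.69 higher in bone marrow over the ages. Why they were higher, and the cause of the other shifts, was not tested.

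In the other 86 turns neither value passed, and the turned values were at most 0.64 in size (Atp6v0d2 between depots at 14 months, without epididymal 14-month replicate 1). Arrays centred on the median turned these values. Tnfsf11 was at 0.0024 in the depot difference for 14 against 6 months. Tnfrsf11b was at 0.056 in bone marrow for 18 against 6 months. Ocstamp was at -0.075 in epididymal adipocytes for 14 against 6 months and at 0.0093 in epididymal adipocytes for 18 against 14 months. Atp6v0d2 was at 0.059 between depots at 14 months. Acp5 was at -0.0023 in the depot difference for 18 against 14 months. Ctsk was at 0.058 in epididymal adipocytes for 18 against 6 months. Repeated quantile normalization turned these. Tnfsf11 was at 0.0094 in bone marrow for 18 against 14 months. Tnfrsf11b was at 0.0034 in bone marrow for 18 against 6 months. Tnfrsf11a was at -0.081 between depots at 18 months. Ocstamp was at -0.058 between depots over the ages, at -0.19 between depots at 18 months, at -0.021 in epididymal adipocytes for 14 against 6 months, at 0.054 in epididymal adipocytes for 18 against 6 months, at 0.075 in epididymal adipocytes for 18 against 14 months and at -0.11 in the depot difference for 18 against 6 months. Atp6v0d2 was at 0.0098 in epididymal adipocytes for 18 against 6 months. Acp5 was at -0.090 in epididymal adipocytes for 18 against 14 months. Ctsk was at 0.020 in epididymal adipocytes for 18 against 6 months. Calcr was at -0.055 between depots over the ages and at 0.044 in epididymal adipocytes for 18 against 6 months. The ribosomal scaling turned these as well. Tnfsf11 was at 0.022 in bone marrow for 18 against 14 months, at -0.015 in epididymal adipocytes for 18 against 6 months and at 0.15 in the depot difference for 14 against 6 months. Tnfrsf11b was at 0.13 in bone marrow for 18 against 6 months and at 0.12 in the depot difference for 14 against 6 months. Dcstamp was at -0.037 in epididymal adipocytes for 14 against 6 months. Ocstamp was at 0.051 in bone marrow for 18 against 6 months and at -0.18 in epididymal adipocytes for 14 against 6 months. Calcr was at 0.12 in the depot difference for 18 against 6 months. Array weights turned these. Tnfsf11 was at 0.0081 in epididymal adipocytes for 14 against 6 months. Ocstamp was at -0.059 between depots over the ages, at 0.086 in bone marrow for 18 against 6 months and at 0.0017 in the depot difference for 18 against 14 months. Atp6v0d2 was at 0.17 between depots at 14 months. With 1 array left out at a time, 51 turns fell on these results, given by their lowest and highest values. Acp5 was between -0.0100 and 0.094 in bone marrow for 18 against 6 months and between -0.091 and 0.13 in epididymal adipocytes for 18 against 14 months. Atp6v0d2 was between -0.54 and 0.64 between depots at 14 months and between -0.33 and 0.016 in epididymal adipocytes for 18 against 6 months. Calcr was between -0.040 and 0.031 between depots over the ages and between -0.20 and 0.010 in the depot difference for 18 against 6 months. Ctsk was between -0.12 and 0.089 in epididymal adipocytes for 18 against 6 months. Ocstamp was between -0.10 and 0.36 in bone marrow for 14 against 6 months, between -0.33 and 0.13 in bone marrow for 18 against 6 months, between -0.0060 and 0.14 between depots at 14 months, between -0.038 and 0.041 between depots at 18 months, between -0.26 and 0.20 between depots at 6 months, between -0.070 and 0.083 between depots over the ages, between -0.15 and 0.31 in the depot difference for 14 against 6 months, between -0.14 and 0.0068 in the depot difference for 18 against 14 months and between -0.20 and 0.26 in the depot difference for 18 against 6 months. Tnfrsf11b was between -0.096 and 0.10 in bone marrow for 18 against 6 months and between -0.40 and 0.032 in the depot difference for 14 against 6 months. Tnfsf11 was between -0.12 and 0.0042 in bone marrow for 18 against 14 months, between -0.087 and 0.040 in epididymal adipocytes for 14 against 6 months, between -0.016 and 0.13 in epididymal adipocytes for 18 against 14 months and between -0.026 and 0.11 in epididymal adipocytes for 18 against 6 months.

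Counts of members called moved as follows. With the ribosomal scaling they were 4 over the ages, 6 at 6 months and 5 at 14 months, and without the fold limit 8, 6 and 6. The ribosomal scaling moved the median of all tested probe sets by -0.69, -0.86 and -0.56 in these comparisons. The share of all probe sets called under it is not given, so its counts are not read as a result about the members. A fold of 2 for ages left 0 in bone marrow at 18 against 14 months, and in epididymal adipocytes 1 at 14 against 6, 0 at 18 against 6 and 2 at 18 against 14 months. It left 0 and 1 differences between depots at 18 against 6 and 18 against 14 months. The filter on low values, which kept 6 members and dropped Tnfrsf11b, Dcstamp, Ocstamp and Calcr, gave 1 in bone marrow at 18 against 14 months, and 2 and 1 for the differences at 14 against 6 and 18 against 14 months. With all probe sets of the table tested, 2 passed in epididymal adipocytes at 14 against 6 months. The difference at 14 against 6 months had 0 members with ordinary tests, an intensity trend, array weights, all probe sets or only the groups compared, 3 with arrays centred on the median or the ribosomal scaling, and 2 with quantile normalization repeated. At 18 against 6 months the difference had 0 with ordinary tests or all probe sets, 2 with array weights and 3 with the ribosomal scaling. The bone marrow F test called 2 with ordinary tests, arrays centred on the median or quantile normalization repeated.

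Leaving out 1 array at a time gave 2 to 3 members over the ages, 3 to 4 at 14 months and 2 at 6 and at 18 months. Bone marrow had 0 to 1 at 14 against 6, 0 to 1 at 18 against 6 and 1 to 2 at 18 against 14 months, and epididymal adipocytes 1 to 4, 3 to 4 and 4 to 6. Differences between depots numbered 0 to 3, 0 to 2 and 2, and the F test 1 to 2 in bone marrow and 4 to 7 in epididymal adipocytes. The single bone marrow call at 14 against 6 months came without bone marrow 6-month replicate 2, and that at 18 against 6 months when replicate 3 of that group, or replicate 1 of the epididymal 14-month group, was left out. The count at 18 against 14 months in bone marrow was 1 without 14-month replicate 1 or 2 or 18-month replicate 2 or 3. In epididymal adipocytes the count at 14 against 6 months was 1 without 6-month replicate 2 or 14-month replicate 1. The bone marrow F test called 2 without 6-month replicate 1 or 3, 18-month replicate 1 or epididymal 14-month replicate 1.

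Same-numbered arrays of the depots correlated between -0.14 and 0.15 after group means were removed, with 1 of 9 pairs over 0.1, so the numbers were not taken as pairs. With the replicate block, the counts of members stayed within 1.5 times and 1 call was lost, Dcstamp in epididymal adipocytes at 18 against 6 months (-0.36, adjusted p = 0.067). Another probe set of a member was not tried, since each has 1. Over the ages, only the groups compared are all groups.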
